A study of Mus musculus with 6 samples.

Results

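The genes described here encode pyruvate entry into the mitochondrion, the pyruvate dehydrogenase complex with its kinases and phosphatases, the citric acid cycle, and the malate-aspartate exchange with the malic enzymes. The list holds 33 genes. Members were the probe sets with 1 gene symbol in the platform annotation that is on the list, and a gene with several was represented by the brightest of them on average. This gave 32 genes of the 19938 named in this way, carried by 35 of the 35556 probe sets. No probe set carried the symbol Mpc2, so that gene was not analysed here. All 32 passed the filter on dim probe sets, which stood at a log2 signal of 3.45.

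The study compared left ventricle from male C57BL/6 mice lacking MURC (now Cavin4, a muscle protein of caveolae) with that of wild-type males, on 3 Affymetrix arrays per genotype. The knockout samples were 11, 11 and 13 weeks old and the wild-type samples 13, 13 and 12 weeks. The labels give neither the making of the knockout allele nor the cells in which it acts. Nor do they say whether samples came from separate animals, so the spread behind each p-value may be technical. Differences are knockout minus wild type on the log2 scale throughout.

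Pyruvate is carried into mitochondria by the MPC1-MPC2 carrier and is turned into acetyl-CoA by the pyruvate dehydrogenase complex. Kinases of the PDK family phosphorylate and switch off this complex, and phosphatases switch it on again. Acetyl-CoA from pyruvate and from fatty acids enters the citric acid cycle at citrate synthase, and the dehydrogenases of the cycle supply NADH to the respiratory chain. The malate-aspartate shuttle moves the reducing power of cytosolic NADH into mitochondria through paired malate dehydrogenases, aspartate aminotransferases and membrane carriers. The heart takes most of its fuel from fatty acids, and PDK4 is a well-known brake on its glucose oxidation.

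The targeted gene followed the labels, with Cavin4 at 5.38 to 5.74 in the knockout and 8.07 to 8.75 in the wild type. Defining markers of ventricular cardiomyocytes were bright on every array, all 7 at 11.48 or more, and their summed signal on the log2 scale ran from 15.34 to 15.36 in the knockout and from 15.32 to 15.36 in the wild type. One array stood apart in atrial markers. In knockout replicate 2 Myl7 measured 7.22 and Myl4 8.67, against 3.61 to 4.11 and 5.41 to 5.61 on the other arrays. Summed leukocyte markers ran from 9.42 to 9.62 in the knockout and from 9.61 to 10.03 in the wild type, with all 6 genes lower in the knockout by mean and 1 at an unadjusted p under 0.05. All 4 smooth muscle markers had the higher mean in the knockout, with 2 at an unadjusted p under 0.05. Their sums ran from 9.12 to 9.16 against 8.77 to 9.13. The part of these cell markers in the results below was not tested. In whole tissue, fewer cells of a type and less RNA per cell cannot be told apart.

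Promoter sequence is shown for the 4 members with the smallest p, which were Got2, Idh3b and Me3, lower in the knockout, and Suclg1, higher. Each run holds the 250 bases before the annotated start, 5′ to 3′ on the gene's strand, from RefSeq (GRCm38.p6). They lie at chr8:95888402-95888651 on the reverse strand, chr2:130284452-130284701 on the reverse strand, chr7:89632568-89632817 on the forward strand and chr6:73248255-73248504 on the forward strand. Capitals mark matches to any of 5 short motifs on either strand: CGGAAG of ETS factors, AAGGTCA of nuclear receptors such as ERR-alpha, GCATGCGC of NRF1, GGGCGG of SP1 and CCAAT of NF-Y.
Got2: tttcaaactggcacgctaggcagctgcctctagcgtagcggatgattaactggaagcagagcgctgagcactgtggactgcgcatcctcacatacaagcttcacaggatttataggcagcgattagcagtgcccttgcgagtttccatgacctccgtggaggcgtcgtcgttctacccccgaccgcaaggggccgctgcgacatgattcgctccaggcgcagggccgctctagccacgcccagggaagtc
Idh3b: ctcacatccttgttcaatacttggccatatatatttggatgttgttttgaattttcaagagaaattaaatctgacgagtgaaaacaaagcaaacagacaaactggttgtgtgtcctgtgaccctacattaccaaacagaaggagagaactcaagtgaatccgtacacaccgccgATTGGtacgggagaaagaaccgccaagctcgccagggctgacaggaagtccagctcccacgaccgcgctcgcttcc
Me3: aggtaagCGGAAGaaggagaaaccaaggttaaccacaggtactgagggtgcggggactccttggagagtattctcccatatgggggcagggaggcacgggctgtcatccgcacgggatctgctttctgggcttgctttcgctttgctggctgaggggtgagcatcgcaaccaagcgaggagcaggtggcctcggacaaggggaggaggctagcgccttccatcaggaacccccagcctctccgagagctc
Suclg1: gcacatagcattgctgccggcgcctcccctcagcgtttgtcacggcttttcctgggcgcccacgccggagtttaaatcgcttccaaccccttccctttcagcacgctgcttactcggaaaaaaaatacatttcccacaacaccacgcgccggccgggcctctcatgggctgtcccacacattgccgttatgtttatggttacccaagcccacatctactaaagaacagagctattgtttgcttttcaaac
Idh3b held 1 match, to CCAAT on the opposite strand, and Me3 held 1, to CGGAAG, while none of these letters occurred in the windows of Got2 and Suclg1. Over the 39 listed windows of 29 members, 28.2% held CGGAAG, against 13.6% of all 32851 windows of the same length. For GGGCGG the shares were 53.8% and 32.7%, and for CCAAT 51.3% and 33.8%. AAGGTCA was in 2.56% of the members' windows and 4.08% of all, and GCATGCGC in 5.13% and 2.26%. A match is a string of letters and not evidence of binding.

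No member passed the adjusted threshold of 0.05 in limma, where 1 probe set did over the whole table, 0.00402% of those tested. An unadjusted p under 0.05 was found for 10 of the 32 members. Of these, 7 or 21.9% were lower in the knockout and 3 or 9.38% higher, beside 9.02% lower and 4.71% higher over all 24898 probe sets. Lower probe sets made up 65.7% of those past this unadjusted threshold, and 51.2% after quantile normalization, which moved the median of all from -0.04 to -0.01. Most members are bright, however, and bright genes passed more often. Among the 1848 genes with a mean of 8 or more, 23.2% were lower and 6.28% higher, and of the 28 members in that range 7 or 25% were lower and 3 or 10.7% higher. The members' share of lower genes was thus near that of other bright genes.

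Genotypes did not overlap at 14 of the 32 members, 9 lower and 5 higher in the knockout. The share without overlap was 12.9% lower and 6.12% higher over all probe sets, and 28.0% lower and 8.17% higher among bright genes, where the 28 bright members gave 32.1% and 17.9%. The median change was -0.06 over the 32 members, -0.04 over all probe sets and -0.05 over genes with a mean of 8 or more. When only annotated probe sets were tested, 361 of 17934 or 2.01% passed the adjusted threshold, and among them were the members Idh3b, Got2 and Me3.

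**Figure D1:**
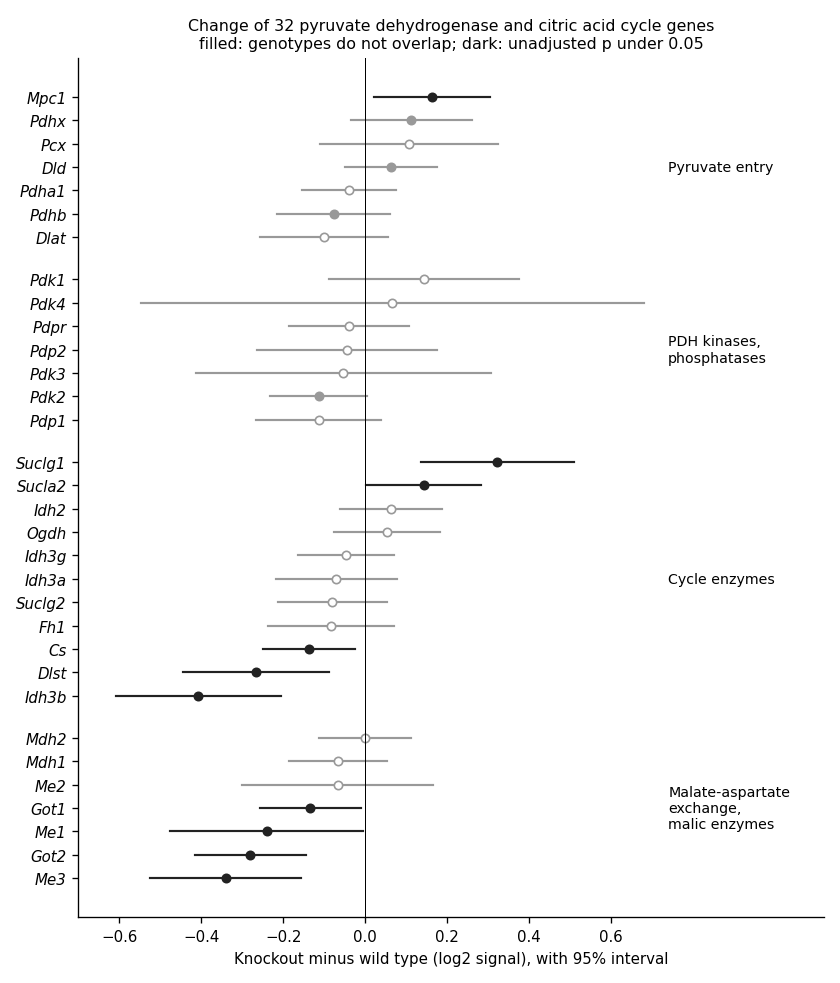
Difference between genotypes (knockout minus wild type, log2 signal) with its 95% interval from limma for each of 32 genes, ordered within 4 functional groups. Filled points mark genes whose 3 knockout and 3 wild-type values do not overlap, and dark points an unadjusted p under 0.05. Idh3b lies farthest to the left at -0.41 and Suclg1 farthest to the right at 0.32, and the interval of Pdk4 is the widest.

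Among the genes of pyruvate entry, Mpc1 was the 1 of 7 measured with an unadjusted p under 0.05, and the group had a median change of 0.06. At this threshold 4.71% of all probe sets and 6.28% of bright genes were higher. Mpc1, a subunit of the mitochondrial pyruvate carrier, measured 11.26, 11.22 and 11.26 in the knockout, against 11.19, 11.02 and 11.04 in the wild type. Every knockout array was above every wild-type array, by 0.16 on average (SE 0.06, limma adjusted p = 0.305). RefSeq lists a pseudogene, Mpc1-ps, on chromosome 12. Whether the 1 probe set of Mpc1 measures the gene, the pseudogene or both was not tested, so the difference may not be that of the gene.

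The E1 subunits of pyruvate dehydrogenase, which together decarboxylate pyruvate, stayed within a narrow range. Pdha1, the alpha subunit, measured 11.38, 11.46 and 11.39 in the knockout, against 11.43, 11.48 and 11.44 in the wild type. The genotypes overlapped, with a difference of -0.04 (95% interval -0.15 to 0.07, limma adjusted p = 0.784), and after quantile normalization the sign turned to 0.04. Pdhb, the beta subunit, measured 10.13, 10.27 and 10.28 against 10.29, 10.33 and 10.29. The knockout lay just below the wild type without overlap, at -0.08 (limma adjusted p = 0.638), and by -0.03 without knockout replicate 1.

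The other subunits of the complex differed by at most 0.11 in either direction. Pdhx, the E3-binding protein, measured 8.39, 8.38 and 8.35 against 8.28, 8.17 and 8.33, 0.11 higher without overlap (limma adjusted p = 0.496), and 0.07 higher without wild-type replicate 2. Dld, the lipoamide dehydrogenase shared with the 2-oxoglutarate complex, measured 10.06, 10.05 and 10.09 against 10.01, 9.99 and 10.01. It was higher on all knockout arrays, though only by 0.06. Dlat, the acetyltransferase core, and Pcx, the carboxylase that makes oxaloacetate from pyruvate, measured -0.10 and 0.11 with overlapping genotypes.

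None of the 7 kinases and phosphatases of the complex had an unadjusted p under 0.05, and their median change was -0.04. This median was -0.08 without wild-type replicate 2 or with age as a covariate, -0.025 without wild-type replicate 1, -0.020 without knockout replicate 3, -0.015 without wild-type replicate 3 and -0.014 after quantile normalization. Pdk4, the kinase induced by fasting and fatty acids, varied most among the arrays. It measured 10.90, 10.41 and 10.70 in the knockout, against 10.49, 10.11 and 11.21 in the wild type, so the wild-type arrays spanned both the lowest and the highest value. The difference was 0.07 with a 95% interval from -0.55 to 0.68 (limma adjusted p = 0.942). These data therefore do not resolve a change of Pdk4 in either direction. With wild-type replicate 3 left out it was 0.37, with wild-type replicate 2 left out -0.18, with knockout replicate 1 left out -0.05, and with age as a covariate -0.10.

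Pdk2, the kinase found in most tissues, had the smallest p of this group. It measured 10.62, 10.60 and 10.64 in the knockout, against 10.79, 10.72 and 10.69 in the wild type. The knockout arrays agreed to within 0.04 of each other and all lay below the wild type, by -0.11 (SE 0.05, limma adjusted p = 0.385), and by -0.06 after quantile normalization. Pdk1, known as a hypoxia target, measured 8.97, 8.91 and 8.92 against 8.99, 8.59 and 8.79, a difference of 0.14 with overlap. Pdk3 was dim, between 3.75 and 4.27 on all arrays. The phosphatase genes Pdp1 and Pdp2 and the phosphatase regulator Pdpr measured -0.11, -0.04 and -0.04, each with overlap.

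**Figure D2:**
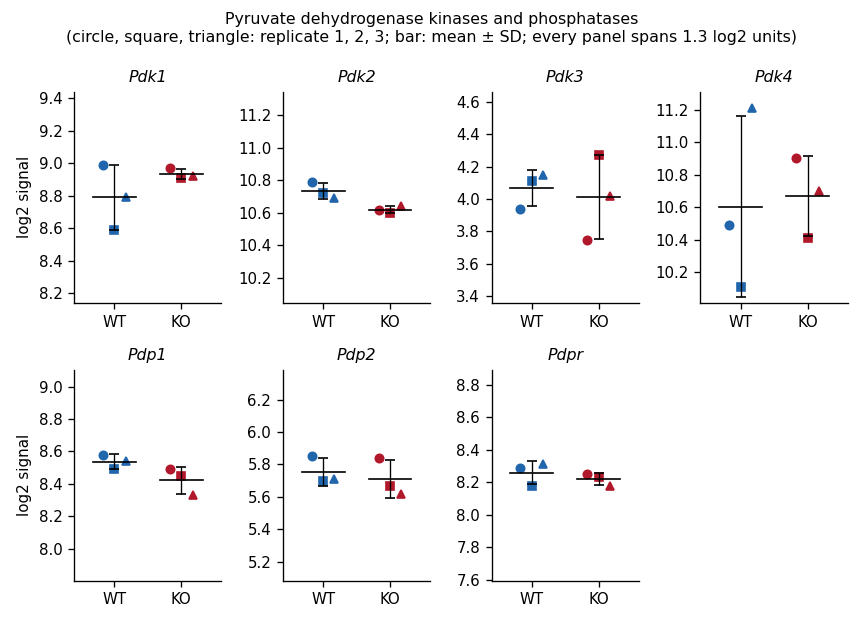
Log2 signal of the 4 pyruvate dehydrogenase kinases, 2 phosphatases and the phosphatase regulator on each array (blue wild type, red knockout, with mean and SD, 3 arrays per genotype), all panels on axes of equal span. Pdk2 is the 1 gene without overlap, and the wild-type points of Pdk4 run from 10.11 to 11.21.

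Citrate synthase, which joins acetyl-CoA to oxaloacetate, was lower by a small amount on every knockout array. Cs measured 11.10, 11.14 and 11.07 in the knockout, against 11.24, 11.26 and 11.22 in the wild type. The genotypes did not overlap, with a difference of -0.14 (SE 0.05, limma adjusted p = 0.279), or 1.10-fold.

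Idh3b had the largest difference of all members. It encodes the beta subunit of the NAD-dependent isocitrate dehydrogenase, the enzyme of a rate-controlling step of the cycle. It measured 11.77, 11.79 and 11.49 in the knockout, against 12.14, 12.09 and 12.04 in the wild type. All knockout arrays were at least 0.25 below the lowest wild-type array, and knockout replicate 3 was lowest. The means were 11.68 ± 0.17 and 12.09 ± 0.05 (SD, n = 3), a difference of -0.41 (SE 0.09) or 1.33-fold, with a limma adjusted p of 0.116 over all probe sets and 0.0278 over annotated ones. Without knockout replicate 3 it was -0.31, the smallest of its values with 1 array left out.

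The partner subunits differed less. Idh3a, the catalytic alpha subunit, measured 10.93, 10.94 and 10.85 against 10.87, 11.02 and 11.04, a difference of -0.07 with overlap. Idh3g, the gamma subunit, measured 11.89, 11.90 and 11.85 against 11.97, 11.94 and 11.87, a difference of -0.05 with overlap. Idh2, the mitochondrial NADP-dependent enzyme, measured 0.06 higher, also with overlap.

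In the 2-oxoglutarate dehydrogenase complex, the core subunit differed and the first subunit did not pass any threshold used here. Ogdh, the E1 decarboxylase, measured 11.95, 11.98 and 11.99 in the knockout, against 11.83, 11.98 and 11.95 in the wild type, a difference of 0.05 (95% interval -0.08 to 0.18), or 0.01 without wild-type replicate 1. Dlst, the E2 succinyltransferase, measured 9.76, 9.82 and 9.55 against 9.97, 9.99 and 9.97. The wild-type arrays lay within 0.02 of each other and the knockout arrays all below them. The difference was -0.27 (SE 0.08, limma adjusted p = 0.202) or 1.20-fold, and -0.19 without knockout replicate 3.

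Succinyl-CoA ligase, the enzyme that forms ATP or GTP directly in the cycle, had both of the cycle genes that measured higher at an unadjusted p under 0.05. Suclg1, the alpha subunit shared by its ATP and GTP forms, measured 9.99, 9.93 and 10.17 in the knockout, against 9.81, 9.65 and 9.66 in the wild type. No array overlapped, and the difference was 0.32 (SE 0.08, limma adjusted p = 0.154) or 1.25-fold. Sucla2, the beta subunit of the ATP form, measured 10.78, 10.85 and 10.89 against 10.74, 10.61 and 10.74, higher by 0.14 without overlap (adjusted p = 0.356). Suclg2, the beta subunit of the GTP form, measured 9.38, 9.42 and 9.30 against 9.48, 9.45 and 9.41, a difference of -0.08 with overlap. Its second, dimmer probe set measured -0.01. Which of the 2 probe sets measures the gene was not tested, so the difference of -0.08 may not be that of the gene.

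Fh1, the fumarase, measured -0.08 with overlap. Of the 11 cycle enzymes 7 had the lower mean in the knockout and 4 the higher, with a median of -0.07. At an unadjusted p under 0.05, 3 or 27.3% were lower and 2 or 18.2% higher, beside 23.2% and 6.28% of bright genes. Knockout replicate 3 alone had the lowest knockout value in 8 of the 11, and in 17 of all 32 members. No share over all probe sets stands beside this count. This sample was 13 weeks old and the other knockout samples 11, so age and array cannot be told apart here.

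**Figure D3:**
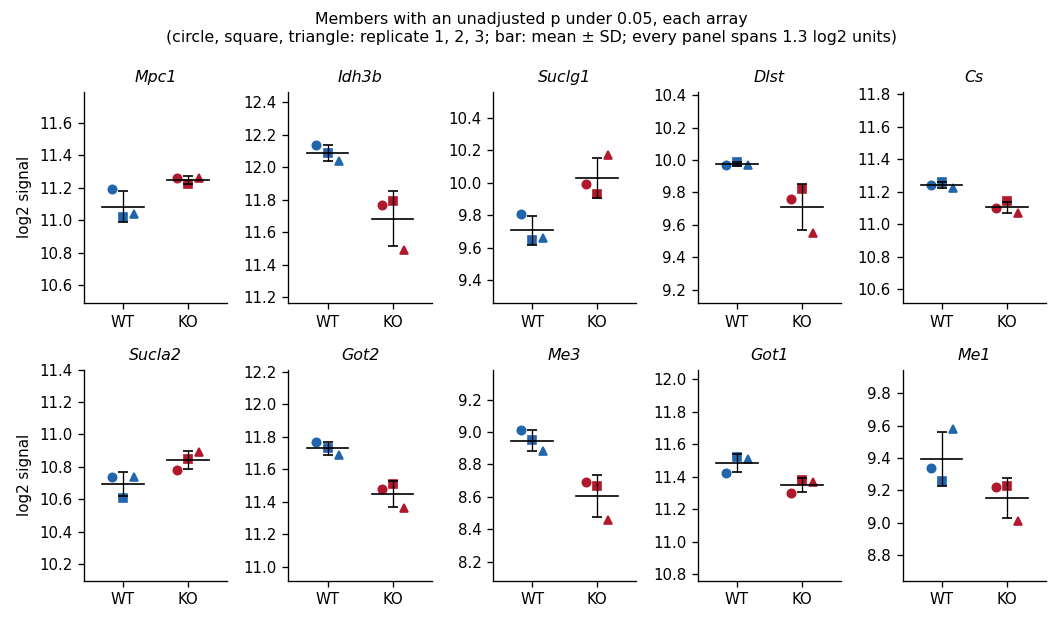
Log2 signal on each array of the 10 members with an unadjusted p under 0.05 (blue wild type, red knockout, with mean and SD, 3 arrays per genotype), all panels on axes of equal span. Mpc1, Suclg1 and Sucla2 are higher in the knockout and the other 7 lower, and knockout replicate 3 (triangle) is the lowest point for Idh3b, Dlst, Cs, Got2, Me3 and Me1.

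Because subunits of 1 enzyme differed in direction, the log2 ratio of each pair of subunits was taken on every array. This cancels a constant offset of an array, but not a scaling that depends on signal level. The ratios were not taken again after quantile normalization, which moved Pdha1 from -0.04 to 0.04 and Dld from 0.06 to 0.08. There were 19 pairs in 4 enzymes, chosen after the members' values were seen, and pairs share genes. Ratios did not overlap between genotypes at 13 of the 19, beside 37.5% of all pairs of genes with a mean of 8 or more. With 3 arrays per genotype the exact permutation test cannot go below p = 0.1, which these 13 reached, so no pair could pass the threshold.

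The ratio of Idh3b to Idh3g was lower by -0.36 in the knockout, and that of Idh3a to Idh3b higher by 0.34, while that of Idh3a to Idh3g differed by -0.02 with overlap. The ratio of Ogdh to Dlst was higher by 0.32 and that of Dlst to Dld lower by -0.33, while Ogdh to Dld differed by -0.01 with overlap. In succinyl-CoA ligase all 3 ratios were without overlap, from 0.18 for Suclg1 to Sucla2 to 0.40 for Suclg1 to Suclg2. Suclg2 was taken by its brighter probe set here. With its second probe set, Sucla2 to Suclg2 did not separate the genotypes. Sucla2 and that probe set measured 10.78 and 8.98 on knockout replicate 1, and 10.74 and 8.94 on wild-type replicate 3, an equal ratio. In the pyruvate dehydrogenase complex 6 of 10 were without overlap, the largest at -0.21 for Dlat to Pdhx.

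**Figure D4:**
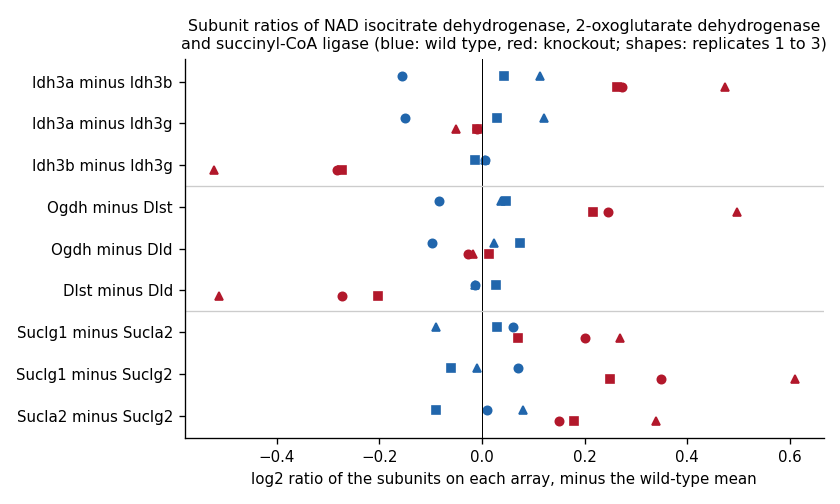
Log2 ratio of subunit pairs of 3 cycle enzymes on each array, centred on the wild-type mean of the pair (blue wild type, red knockout, shapes for replicates 1 to 3). Ratios that hold Idh3b or Dlst, and all 3 of succinyl-CoA ligase, separate the genotypes, and Idh3a minus Idh3g and Ogdh minus Dld do not. Suclg2 is shown by its brighter probe set, and with the other Sucla2 minus Suclg2 does not separate them.

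Of the 7 malate-aspartate and malic enzyme genes, 4 or 57.1% had an unadjusted p under 0.05. All 4 were lower in the knockout, beside 9.02% of all probe sets and 23.2% of bright genes. None of the 7 had a higher mean, and the median was -0.13, or -0.07 after quantile normalization. Got2, the mitochondrial aspartate aminotransferase, measured 11.48, 11.51 and 11.36 in the knockout, against 11.77, 11.73 and 11.69 in the wild type. No array overlapped. The means were 11.45 ± 0.08 and 11.73 ± 0.04 (SD, n = 3), a difference of -0.28 (SE 0.06) or 1.21-fold, with a limma adjusted p of 0.112 over all probe sets and 0.0400 over annotated ones. A second Got2 probe set measured -0.27, also without overlap. RefSeq lists a pseudogene, Got2-ps1, on chromosome 5, while the gene lies on chromosome 8. Which of the 2 probe sets measures the gene, the pseudogene or both was not tested.

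Got1, the cytosolic aminotransferase, measured 11.30, 11.38 and 11.37 against 11.42, 11.52 and 11.51. It was lower on all knockout arrays by -0.13 on average (SE 0.05, limma adjusted p = 0.334), and by -0.07 after quantile normalization. The malate dehydrogenases that work beside them showed no such separation. Mdh1, the cytosolic enzyme, measured 12.13, 12.05 and 12.05 against 12.19, 12.10 and 12.14, a difference of -0.07 with overlap. Mdh2, the mitochondrial enzyme that also closes the cycle, measured 11.90, 11.94 and 11.95 against 11.95, 11.96 and 11.88. Its means were equal, with a 95% interval of the difference from -0.11 to 0.11.

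The membrane carriers of the shuttle are not members, and were taken from a list of 6 carriers of shuttle and cycle intermediates. All 6 had the lower mean in the knockout, with a median of -0.21. Of these, 3 had an unadjusted p under 0.05, beside 9.02% lower over all probe sets and 23.2% among bright genes. None passed the adjusted threshold over all probe sets. These 3 are the carriers of the shuttle itself. Slc25a12, the aspartate-glutamate carrier also called aralar, measured 10.34, 10.46 and 10.10 in the knockout, against 10.64, 10.81 and 10.84 in the wild type. The difference was -0.46 (SE 0.10, limma adjusted p = 0.120 over all probe sets and 0.0279 over annotated ones), or -0.36 without knockout replicate 3. Slc25a13, the second aspartate-glutamate carrier or citrin, measured 9.08, 9.10 and 9.06 against 9.32, 9.23 and 9.22. Slc25a11, the malate-oxoglutarate carrier, measured 10.74, 10.80 and 10.57 against 10.97, 11.04 and 10.95. Neither overlapped, with differences of -0.18 (adjusted p = 0.239) and -0.28 (adjusted p = 0.154). Of the 7 genes that make up the shuttle, both aminotransferases and all 3 carriers were lower without overlap, and both malate dehydrogenases overlapped. The carriers were joined to the members with their values known, and among genes with a mean of 8 or more 28.0% were lower without overlap.

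**Figure D5:**
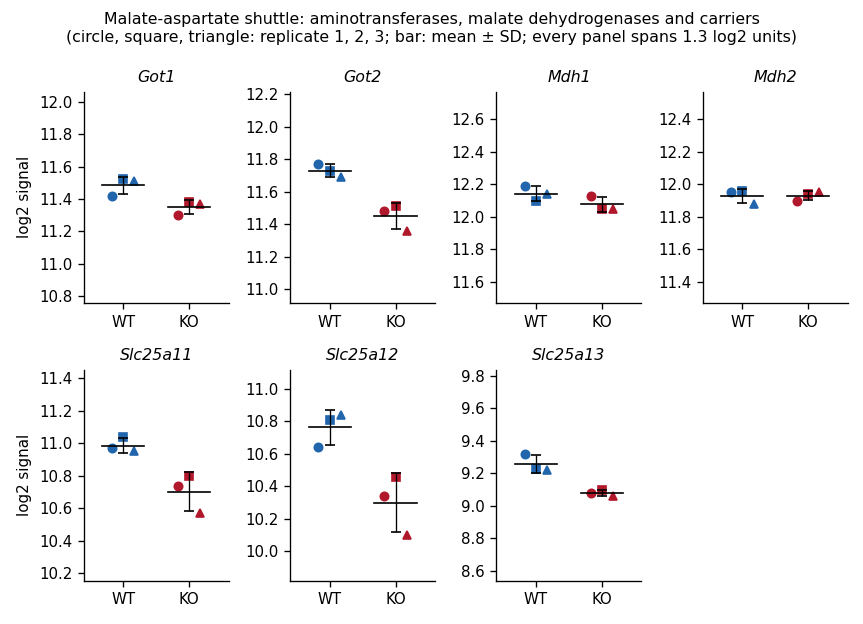
Log2 signal on each array of the 7 genes of the malate-aspartate shuttle (blue wild type, red knockout, with mean and SD, 3 arrays per genotype), all panels on axes of equal span. The aminotransferase genes Got1 and Got2 and the carrier genes Slc25a11, Slc25a12 and Slc25a13 are lower in the knockout without overlap, and Mdh1 and Mdh2 overlap.

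The malic enzymes turn malate into pyruvate and NADH or NADPH. Me3, the mitochondrial NADP-dependent form, measured 8.69, 8.67 and 8.46 in the knockout, against 9.01, 8.95 and 8.88 in the wild type. No array overlapped, and the difference was -0.34 (SE 0.08) or 1.27-fold, with a limma adjusted p of 0.131 over all probe sets and 0.0497 over annotated ones. Me1, the cytosolic form, measured 9.22, 9.23 and 9.01 against 9.34, 9.26 and 9.58. The gap between the genotypes was only 0.03 at its narrowest, and the mean difference of -0.24 (adjusted p = 0.357) was -0.15 without wild-type replicate 3 and -0.38 with age as a covariate. Its second probe set measured -0.20 with overlap. Me2, the mitochondrial NAD-dependent form, measured -0.07 with overlap. Me1 is also expressed in fat cells, whose 4 measured markers were dim (means of 3.52 to 4.74). They summed to 6.02 to 6.15 in the knockout and 6.23 to 6.24 in the wild type. By mean 3 of these markers were lower in the knockout and 1 higher, with 0 at an unadjusted p under 0.05. The part of fat cells in the Me1 difference was not tested.

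Other genes of the cycle and its branches showed no common direction, with a median of -0.01 and none past the adjusted threshold over all probe sets. At an unadjusted p under 0.05, 2 of 20 were higher and 2 lower. Over all probe sets 4.71% were higher and 9.02% lower, and among bright genes 6.28% and 23.2%. Sdhaf4, an assembly factor of succinate dehydrogenase, measured 5.95, 5.80 and 5.87 in the knockout, against 5.40, 5.35 and 5.30 in the wild type, higher by 0.52 (SE 0.08, limma adjusted p = 0.0614 over all probe sets and 0.0144 over annotated ones). The mean over its 2 probe sets was higher by only 0.14, because the other probe set was lower in the knockout. The 2 probe sets of Sdhaf4 thus disagreed in direction. Ogdhl, a paralog of Ogdh, measured 8.65, 8.54 and 8.77 against 8.43, 8.22 and 8.27, higher by 0.35 (adjusted p = 0.151). Both lower genes were Sdhd, a membrane anchor of succinate dehydrogenase, and D2hgdh, which oxidises D-2-hydroxyglutarate, at -0.26 and -0.25. The catalytic subunits Sdha and Sdhb measured -0.04 and -0.01, and turned to 0.03 and 0.04 after quantile normalization, Sdhb also to 0.01 after median centring.

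Of 6 genes of lactate and pyruvate handling none had an unadjusted p under 0.05. Ldha and Ldhb, the subunits of lactate dehydrogenase, measured -0.13 and 0.11. Among 14 measured regulators known to act on Pdk4 or on cycle genes, Nr3c1, the glucocorticoid receptor, was the 1 at an unadjusted p under 0.05. Over all probe sets 9.02% were lower at this threshold, so 1 of 14 does not stand out. Nr3c1 measured 7.44, 7.35 and 7.25 in the knockout, against 7.61, 7.65 and 7.55 in the wild type, a difference of -0.26 (SE 0.07, limma adjusted p = 0.199). Ppara, the receptor that induces Pdk4 on fatty acids, measured 0.03, and Ppargc1a and Esrra, regulators of mitochondrial genes, -0.15 and -0.09, all with overlap. With its 2 probe sets averaged, Ppargc1a measured 0.03.

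Leaving out knockout replicate 2, the array with high atrial markers, kept the direction of each of the 10 members, and 7 members then had an unadjusted p under 0.05. Idh3b measured -0.46, Got2 -0.31, Me3 -0.37, Dlst -0.32 and Suclg1 0.37 without it. The number was 6 on leaving out replicate 1 or 3 of the knockout, or replicate 2 or 3 of the wild type. After quantile normalization 5 members were lower and 5 higher at an unadjusted p under 0.05, and after median centring 4 and 3.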

How the data were processed

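Total RNA of left ventricle, 100 ng per sample per the labels' protocols, was biotin-labelled and hybridised to 6 Affymetrix arrays. The deposited table holds log2 values, 1 per probe set and array, from 0.46 to 13.72. The submitters' processing notes name MAS5 without role or version, and the summarization, scaling and genome build were not given in the sources used here. That the deposited values are log2 was settled from their range. Column medians lay between 4.60 and 4.71, and the values were used as deposited.

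Of the probe sets, 21789 had 1 symbol in the platform annotation, 1621 several and 12146 were not listed. Genotypes were compared across all probe sets with a mean at or above the 30th percentile, in R 4.3.3 with limma 3.58.1 (lmFit, eBayes with intensity trend, two-sided, Benjamini-Hochberg over 24898 probe sets, threshold 0.05). A background of genes with a mean of 8 or more was added after the data were seen, as were the subunit ratios. Only 3 arrays per genotype limit the precision.

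The members, gene lists and tests were chosen with earlier results of these data known. Members named with every array were those with an unadjusted p under 0.05 or without overlap, with Pdk4, Pdha1, Mpc1, Cs, Ogdh, Mdh2 and Got2 in any case. Values of Idh3a, Idh3g, Suclg2, Mdh1, Pdk1 and the shuttle carriers are given as well, as partners of these, chosen after their values were seen. Genes of other lists were named at an unadjusted p under 0.05, and Sdha, Sdhb, Ldha, Ldhb, Lias, Bckdha, Ppara, Ppargc1a and Esrra were named for their known role. The alternatives were other scalings, filters and probe sets, age, the replicate number as a block and each array left out. On simulated arrays with known changes over 24889 probe sets, the fit recovered 6% of changes of 0.3, 26% of 0.5, 74% of 1 and 94% of 2.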

Additional observations from a re-analysis of the deposited data

How the results depend on the processing

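No member passed the adjusted threshold of 0.05 in limma under any scaling, filter, probe set, age or block setting or with 1 array left out, except that 3 did (Idh3b, Got2 and Me3) when annotated probe sets alone were tested. Over all probe sets the calls numbered 1, against 130 after quantile normalization, 105 after median centring, 48 with the filter at the 50th percentile, 34 with age, 361 among annotated probe sets and 0 with the replicate number as a block. The labels do not say whether samples with the same number were paired. Their deviations from the genotype means correlated at -0.06, 0.02 and -0.06, which cannot settle this with 3 arrays per genotype. With this block 8 members had an unadjusted p under 0.05, against 10 without it. With 1 array left out they numbered 6 to 10, being 7 without knockout replicate 2. After quantile normalization 5 were lower and 5 higher, and after median centring 4 and 3. The share of lower genes among all with an unadjusted p under 0.05 was 65.7%, against 51.2% after quantile normalization, 56.0% after median centring and 50.1% without wild-type replicate 1.

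The median of the pyruvate entry genes was 0.083 after median centring and ran from 0.033 to 0.072 with 1 array left out. That of the cycle enzymes was -0.028 after quantile normalization and ran from -0.082 to -0.032, that of the kinases and phosphatases ran from -0.080 to -0.015, and that of the malate-aspartate group was -0.067 after quantile normalization and ran from -0.165 to -0.108. Pdha1 reversed to 0.041 after quantile normalization. Pdk4 reversed to -0.10 with age, and ran from -0.18 to 0.37 with 1 array left out. For 18 members followed singly, 139 of the other values kept direction and call. Only 3 arrays per genotype limit the precision.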

Other observations

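Genes of the branched-chain ketoacid dehydrogenase, a sister of the pyruvate and 2-oxoglutarate complexes that uses the same Dld subunit, were mostly lower by mean, 4 of 5, with a median of -0.21. Of these, 3 had an unadjusted p under 0.05, beside 9.02% lower over all probe sets and 23.2% among bright genes. None passed the adjusted threshold. Dbt, its E2 core, measured 8.97, 9.14 and 9.14 in the knockout, against 9.34, 9.35 and 9.20 in the wild type, a difference of -0.21 (SE 0.07, limma adjusted p = 0.274). Bckdhb, its E1 beta subunit, measured 7.20, 7.26 and 7.26 against 7.65, 7.49 and 7.34, a difference of -0.25 (SE 0.09, adjusted p = 0.281). Neither overlapped between genotypes, while Bckdha, the E1 alpha subunit, measured 0.12 with overlap. Ppm1k, the phosphatase that activates the complex, measured -0.21 with overlap, or -0.13 without wild-type replicate 1 and -0.10 with age as a covariate.

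In 6 genes of mitochondrial fatty acid and lipoic acid synthesis, which supply the cofactor of the E2 subunits, 1 had an unadjusted p under 0.05. It was lower in the knockout, as were 9.02% of all probe sets at this threshold. Oxsm, the ketoacyl synthase, measured 7.20, 7.18 and 6.83 in the knockout, against 7.29, 7.28 and 7.61 in the wild type, a difference of -0.32 (limma adjusted p = 0.346). It was -0.20 without knockout replicate 3, -0.215 without wild-type replicate 3 and -0.53 with age as a covariate. The lipoic acid synthase Lias measured 0.03.

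All 10 measured PPAR target genes of a list that leaves out Pdk4 had the lower mean in the knockout, with a median of -0.26. Of these, Slc25a20, Acot2, Acot1 and Plin2 had an unadjusted p under 0.05, beside 9.02% lower over all probe sets and 23.2% among bright genes. None passed the adjusted threshold over all probe sets. Over annotated probe sets alone Slc25a20 (limma adjusted p = 0.0316), Acot2 (0.0231) and Acot1 (0.0467) passed it. Pdk4, itself a PPAR target, measured 0.07.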
